A study of Mus musculus with 6 samples.

Results

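High endothelial venules are the vessels through which lymphocytes enter lymph nodes from the blood, and the measurements below follow 10 genes that mark these vessels or build their adhesive coat. The genes were Glycam1, Madcam1, Gcnt1, Chst4, Chst2, Fut7, Fut4, Ackr1, Enpp6 and Lifr, and every probe whose platform symbol was one of them was taken, which gave 14 of the 25697 probes on the array. Lymph nodes of mice carrying knockouts of both Rag2 and pfp, the perforin gene now named Prf1, were compared with nodes of wild-type mice, 3 arrays each (replicates 1 to 3 of KO and of WT below). Expression was read from total RNA of the whole node on Illumina Mouse Ref-8 v2 BeadChips, which give 1 signal per probe and array. RAG2 cuts DNA to assemble antigen receptor genes, a step that B and T cells need in order to mature. Perforin makes pores in the targets of killer lymphocytes. The labels give neither the node nor the age, sex or strain of the mice. They do not say that replicates were separate mice either, and p-values therefore speak only to the variation among the arrays, part of which may be technical.

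The plump endothelial cells of these venules display mucin-like glycoproteins whose O-glycans end in sulfated, sialylated and fucosylated sugars. L-selectin on circulating lymphocytes binds these sugars and lets the cells roll along the vessel wall before chemokines and integrins arrest them. GLYCAM1 and MADCAM1 are protein carriers of the sugars, GCNT1 makes the core 2 branch, CHST4 and CHST2 add sulfate, and FUT7 and FUT4 add fucose. The venules are known to depend on lymphotoxin signals from lymphocytes and dendritic cells.

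At a detection p-value under 0.05, each array detected 51.3% to 56.3% of its probes. The Rag2 probe was not detected on any array (lowest detection p 0.332), and neither of both Prf1 probes passed the test, at log2 fold changes of 0.35 and -0.14 (limma adjusted p = 0.439 and 0.804). The position of the probes relative to the deleted parts is not known, so these probes give no check of the genotype. Of 12 B cell markers on the array, 6 to 7 were detected on each KO array and 11 on each WT array. WT replicate 2 stood apart from the other WT arrays. Its correlation over the 14378 tested probes was 0.884 with WT replicate 1 and 0.893 with WT replicate 3, whereas WT replicates 1 and 3 correlated at 0.984, and its correlations with the KO arrays were 0.915, 0.915 and 0.930. The mean log2 signal of 17 exocrine gland genes was 11.32, 13.37 and 12.69 on the KO arrays and 5.76, 11.71 and 5.86 on the WT arrays. Of 20 gland genes on the array, 16 or 17 were detected on each KO array and on WT replicate 2, and 4 on each of the other WT arrays. The venule probes are therefore also given without WT replicate 2 or with the gland mean as a covariate, wherever these change a call. The gland mean was high on all KO arrays and, of the WT arrays, on WT replicate 2 alone, so it largely follows the genotype. The covariate fit thus rests mostly on WT replicate 2 and separates gland content from genotype poorly.

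Glycam1 was lower and Lifr higher in KO nodes, and no other venule gene passed the test. Probes were tested where they were detected on at least 3 of the 6 arrays, which held for 12 of the 14 venule probes and for 9 of the 10 genes. Of these 12 probes, 1 was called lower and 1 higher in KO nodes at an adjusted p under 0.05 (limma, Benjamini-Hochberg over all tested probes). Over all tested probes 18.5% were called lower and 10.1% higher, 28.6% in all. With 1 probe in each direction, the venule probes do not stand above that background. A negative change was seen for 7 of the 12, beside 49.9% of all tested probes. Over the 9 tested genes, each by its brightest probe, the median log2 fold change was -0.28, beside 0.03 over all 9973 tested genes. The direction was negative for 6 of the 9 genes, beside 48.3% of all genes.

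**Figure D1:**
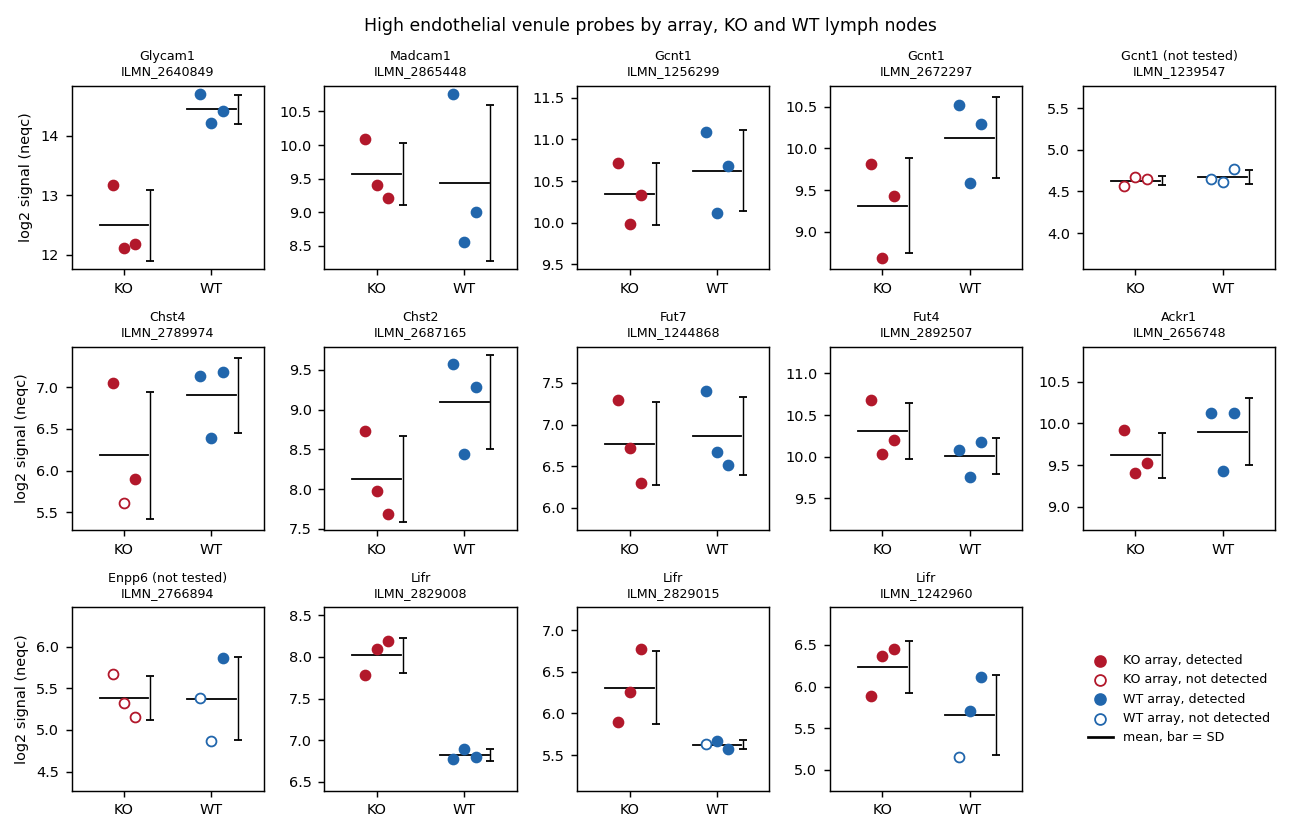
Log2 signal of each of the 14 venule probes on the 3 KO arrays (left, red) and the 3 WT arrays (right, blue). Filled points were detected, open points were not, lines are group means and bars are SD. The KO points lie below all WT points for Glycam1 (KO mean 12.49, WT mean 14.45) and above all WT points for 2 of the Lifr probes, and KO and WT points overlap for every other tested probe.

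GLYCAM1 is a secreted mucin of the venules that carries L-selectin ligands, and it is also a component of milk. The single Glycam1 probe gave deposited signals of 9631, 3774 and 4465 on KO replicates 1, 2 and 3, against 27760, 20119 and 22856 on the WT arrays. All KO arrays lay below all WT arrays, and KO replicate 1 had the highest signal of the KO arrays. On the normalized log2 scale it averaged 12.49 ± 0.59 in KO nodes and 14.45 ± 0.24 in WT nodes (SD, n = 3 each), 3.87-fold lower in KO nodes (log2 fold change -1.95, SE 0.32, limma adjusted p = 0.0089). KO and WT arrays were fully apart for 3 of the 12 venule probes and for 48.2% of all tested probes, and every KO array lay below every WT array for 27.3% of all tested probes. In RNA of a whole node, fewer venule cells and less Glycam1 RNA per cell cannot be told apart. The call held with any 1 array left out, with the highest adjusted p at 0.041 without KO replicate 3, and the change was -2.07 (adjusted p = 0.0058) without WT replicate 2. With the gland mean as a covariate the log2 fold change was -1.48 (limma adjusted p = 0.052), and against WT replicate 2 alone it was -1.72 (limma adjusted p = 0.089). Both settings kept the direction and lost the call.

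Milk protein genes were examined beside Glycam1, because lymph nodes can lie in mammary fat. Of the 6 milk protein genes on the array and not tested, Csn1s2a, Wap, Lalba and Btn1a1 were detected on none of the arrays and Csn3 on KO replicate 3 alone. The casein gene Csn2 gave signals of 84.9, 85.3 and 98.4 on the KO arrays, none of them detected, against 503, 230 and 165 on the WT arrays, of which the first 2 were detected. The median signal of all probes was 134 to 144 on KO arrays and 191 to 207 on WT arrays, so these deposited signals do not compare the groups on a common scale. On WT replicate 3 Csn2 was not detected (detection p 0.069) and Glycam1 read 22856. The 4 tested genes of the milk and mammary list were Krt8, Krt18, Krt19 and Elf5, none of them a milk protein gene. Of these 0 were called. They averaged 9.05, 10.93 and 10.46 on the KO arrays and 4.89, 10.24 and 5.12 on the WT arrays (log2), high wherever the gland list was high. They therefore do not mark mammary tissue apart from gland tissue here. Without WT replicate 2, 3 of these 4 genes were called higher, in a fit that called 19.5% of all tested probes higher. The part of mammary tissue in the Glycam1 result was not tested.

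The 250 bases before the Glycam1 start were taken from RefSeq (GRCm38.p6, chr15:103565082-103565331, minus strand), because Glycam1 was the venule probe that fell. The capitals mark the GGAA core that ETS factors bind, read on either strand.
Glycam1: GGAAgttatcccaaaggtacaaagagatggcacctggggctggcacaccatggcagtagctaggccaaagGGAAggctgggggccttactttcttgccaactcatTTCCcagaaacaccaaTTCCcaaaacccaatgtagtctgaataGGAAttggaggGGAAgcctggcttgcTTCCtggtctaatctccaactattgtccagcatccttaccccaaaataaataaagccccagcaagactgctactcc
This window held 7 GGAA matches, where the median over 32851 mouse promoter windows of the same length was 3 and 3.82% of windows held at least 7. The windows of Ackr1 and Madcam1, neither of them called, held 7 and 8, so the count is not particular to the gene that fell. At least 1 match was found in 93.4% of windows. Both strands were also searched for the kappa B consensus of NF-kB factors, which had no match in the Glycam1 window. The TATA box letters TATAAA gave no match there either.

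MADCAM1, which carries L-selectin ligands on a mucin stalk and binds the integrin of gut-homing lymphocytes through its immunoglobulin domains, did not follow Glycam1. Its probe gave log2 signals of 10.09, 9.41 and 9.22 on the KO arrays and 10.76, 8.56 and 9.002 on the WT arrays. WT replicate 1 was the highest and WT replicate 2 the lowest of the 6, so the WT arrays spanned the KO arrays. The log2 fold change was 0.13 (SE 0.59, limma adjusted p = 0.877), and its 95% interval from -1.29 to 1.55 leaves room for a 2.93-fold rise or a fold of 0.41. Without KO replicate 1, WT replicate 2 or WT replicate 3 the direction turned, at -0.13, -0.31 and -0.09, none of them called. Madcam1 is also made by marginal reticular cells of the node. The 13 tested reticular and follicular stromal genes had 5 called lower and 1 called higher, beside 17.3% and 10.2% of all genes. Fcer2a and Cr2, which follicular dendritic cells share with B cells, were not detected on any KO array. Set against the lowest detected signal of each KO array, which gives a bound, they were at least 32.2-fold and at least 5.07-fold lower in KO nodes. The part of these cells in the Madcam1 signal was not tested.

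Madcam1 was the only venule gene whose window before the start held a kappa B match. Of 14 windows for the 10 genes, all of which were found in RefSeq, this was 1 window, and 7.25% of all mouse windows held a match. The window (GRCm38.p6, chr10:79664309-79664558, plus strand) is shown for contrast with Glycam1, and the capitals mark 2 kappa B matches.
Madcam1: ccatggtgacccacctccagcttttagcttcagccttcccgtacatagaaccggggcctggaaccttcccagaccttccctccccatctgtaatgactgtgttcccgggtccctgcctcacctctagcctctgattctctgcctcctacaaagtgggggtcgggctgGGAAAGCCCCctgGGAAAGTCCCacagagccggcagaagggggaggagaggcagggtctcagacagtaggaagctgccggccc
Both kappa B matches overlap a GGAA match, of which this window held 8. A match is a stretch of letters and says nothing of binding in these nodes.

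The sulfotransferases and the branching enzyme read lower on average in KO nodes without passing the test. Chst2 gave log2 signals of 8.73, 7.98 and 7.69 on the KO arrays and 9.57, 8.44 and 9.28 on the WT arrays. KO replicate 1 lay above WT replicate 2, and the other KO arrays lay below every WT array. Chst2 had a log2 fold change of -0.97 (SE 0.39, limma adjusted p = 0.106), with a 95% interval from -1.90 to -0.03. Without WT replicate 2 its change was -1.30 (limma adjusted p = 0.021), a call that was absent with all arrays. In that fit 24.3% of all tested probes were called lower, and 3 of the 12 venule probes. Chst4, the sulfotransferase largely restricted to these venules, was dim. It was detected on 2 of 3 KO arrays, not on KO replicate 2 (detection p 0.086), and on all WT arrays. Its log2 signals were 7.05, 5.61 and 5.90 on the KO arrays and 7.14, 6.39 and 7.19 on the WT arrays, and KO replicate 1 lay within the WT range. The log2 fold change of Chst4 was -0.72 (SE 0.43, limma adjusted p = 0.231), and the offset of 16 added before the log shrinks the change of such a dim probe. With the gland mean as a covariate Chst2 was at -0.07 and Chst4 at 0.14, neither of them called.

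Gcnt1, whose enzyme starts the core 2 branch and which lymphocytes and myeloid cells also express, has 3 probes on the array. The brightest, ILMN_1256299, gave log2 signals of 10.72, 9.98 and 10.33 on the KO arrays and 11.09, 10.11 and 10.68 on the WT arrays, with overlapping groups and a log2 fold change of -0.28 (SE 0.31, limma adjusted p = 0.503). The second, ILMN_2672297, read 9.82, 8.69 and 9.43 on the KO arrays and 10.52, 9.58 and 10.29 on the WT arrays. Its log2 fold change was -0.82 (SE 0.37, limma adjusted p = 0.138), and -1.09 (limma adjusted p = 0.042) without WT replicate 2. The probes thus agreed in sign, and neither was called with all arrays. The remaining probe, ILMN_1239547, was not detected on any of the 6 arrays, with deposited signals of 71.1 to 79.9 in KO nodes and 110 to 131 in WT nodes. Its normalized log2 means were 4.63 in KO nodes and 4.68 in WT nodes. In the same arrays the mean log2 signal of 11 B cell genes was 6.55 to 7.12 in KO nodes and 11.47 to 12.29 in WT nodes, and that of 12 T cell genes was 7.05 to 8.01 in KO nodes and 10.51 to 11.04 in WT nodes. The part of lymphocytes in the Gcnt1 signal was not tested.

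The fucosyltransferases gave small differences. FUT7 adds the fucose that completes most L-selectin ligands, and it also acts in neutrophils and activated T cells. Fut7 read 7.29, 6.72 and 6.30 on the KO arrays and 7.40, 6.67 and 6.52 on the WT arrays (log2), with replicate 1 the highest in either group. The log2 fold change was -0.09 (SE 0.34, limma adjusted p = 0.848), and its direction turned without KO replicate 3 (0.14) or WT replicate 1 (0.18). Fut4, which shares this work and is strong in myeloid cells, read 10.68, 10.03 and 10.21 on the KO arrays and 10.09, 9.76 and 10.18 on the WT arrays. Its log2 fold change was 0.30 (SE 0.23, limma adjusted p = 0.338), with a 95% interval from -0.25 to 0.84. The neutrophil list had a mean log2 signal of 8.82, 9.12 and 10.35 on the KO arrays and 13.12, 8.88 and 11.38 on the WT arrays, so the WT arrays differed widely in neutrophil genes. Its 12 tested genes included 1 called lower, Cxcr2, a chemokine receptor of neutrophils, with a log2 fold change of -1.90 (limma adjusted p = 0.021), and this call was lost without KO replicate 2 or 3 or WT replicate 3 (limma adjusted p up to 0.072). With all arrays 17.3% of all genes were called lower. Without WT replicate 2, 9 of the 12 neutrophil genes and 24.3% of all tested probes were called lower. With the gland mean as a covariate 0 of the 12 were by limma, beside 10.8% of all tested probes. Of 14 neutrophil genes on the array, 12 were detected on each KO array and 12 to 13 on each WT array. The part of neutrophils in both fucosyltransferase signals was not tested.

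Among the other venule genes, Ackr1 encodes an atypical chemokine receptor of venular endothelium and of red cell precursors. Its log2 signals were 9.92, 9.40 and 9.52 on the KO arrays and 10.13, 9.43 and 10.13 on the WT arrays. WT replicate 2 lay among the KO arrays and the other WT arrays lay above all 3. The log2 fold change of Ackr1 was -0.28 (SE 0.26, limma adjusted p = 0.422). Enpp6, a choline-specific phosphodiesterase gene found in venule cells, was at the limit of detection. Its deposited signals were 126, 109 and 108 on the KO arrays, none of them detected, and 176, 132 and 185 on the WT arrays, of which WT replicate 3 alone was detected. Enpp6 was therefore not tested and no fold is given. On the normalized log2 scale its means were 5.38 in KO nodes and 5.37 in WT nodes, so the gap in deposited signals was absent there.

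Lifr, the receptor chain for leukaemia inhibitory factor, was the venule gene that rose. The probe ILMN_2829008 gave log2 signals of 7.78, 8.09 and 8.19 on the KO arrays and 6.77, 6.90 and 6.80 on the WT arrays, with every KO array above every WT array. It was 2.29-fold higher in KO nodes (log2 fold change 1.20, SE 0.16, limma adjusted p = 0.0054), and the call held with any 1 array left out, the highest adjusted p being 0.030. It also held with the gland mean as a covariate (1.04, limma adjusted p = 0.027), but not against WT replicate 2 alone (1.12, limma adjusted p = 0.064). The size depended on background correction. The deposited signals of this probe were 287, 295 and 358 on the KO arrays and 255, 252 and 247 on the WT arrays, while the median signal of all probes was 134 to 144 on KO arrays and 191 to 207 on WT arrays. In the authors' deposited log2 values, which carry no background correction, the change was 0.76 (limma adjusted p = 0.0081). The other probes had the same direction and were not called. ILMN_2829015 read 5.90, 6.25 and 6.78 on the KO arrays and 5.64, 5.67 and 5.57 on the WT arrays (log2 fold change 0.68, SE 0.24, limma adjusted p = 0.077). ILMN_1242960 read 5.88, 6.36 and 6.46 on the KO arrays and 5.16, 5.70 and 6.12 on the WT arrays (log2 fold change 0.58, SE 0.29, limma adjusted p = 0.175). Both are dim, with 1 WT array below detection for each, and in the authors' deposited log2 values their changes were 0.29 and 0.24. Adipocytes and fibroblasts are also known to express Lifr. The mean log2 signal of 10 adipocyte genes was 10.68, 10.12 and 10.07 on the KO arrays and 9.38, 9.61 and 9.56 on the WT arrays. Of these 10 genes 4 were called higher and 0 lower, beside 10.2% and 17.3% of all genes. The largest rises were those of Gpd1 (1.93) and Cidec (1.43). Of 12 adipocyte genes on the array, 10 were detected on each KO array and 9 to 11 on each WT array, and the part of these cells in the Lifr result was not tested.

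RefSeq gives 2 starts for Lifr. The 250 bases before the first start (GRCm38.p6, chr15:7129322-7129571, plus strand) are shown as those of the gene that moved opposite to Glycam1, with a match to the nuclear receptor element AGGTCA in capitals, here on the opposite strand.
Lifr: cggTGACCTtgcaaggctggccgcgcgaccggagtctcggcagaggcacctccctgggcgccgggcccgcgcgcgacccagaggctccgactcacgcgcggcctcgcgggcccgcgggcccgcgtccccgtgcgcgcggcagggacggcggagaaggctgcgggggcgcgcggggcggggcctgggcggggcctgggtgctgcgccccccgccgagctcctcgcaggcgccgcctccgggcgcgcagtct
AGGTCA was found in 14% of all mouse windows and in 2 of the 14 venule windows, those of Lifr and Ackr1. Neither Lifr window held a GGAA match, and nor did the window of Chst2, which read lower on average in KO nodes. A match was found in 11 of the 14 venule windows and in 93.4% of all mouse windows.

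**Figure D2:**
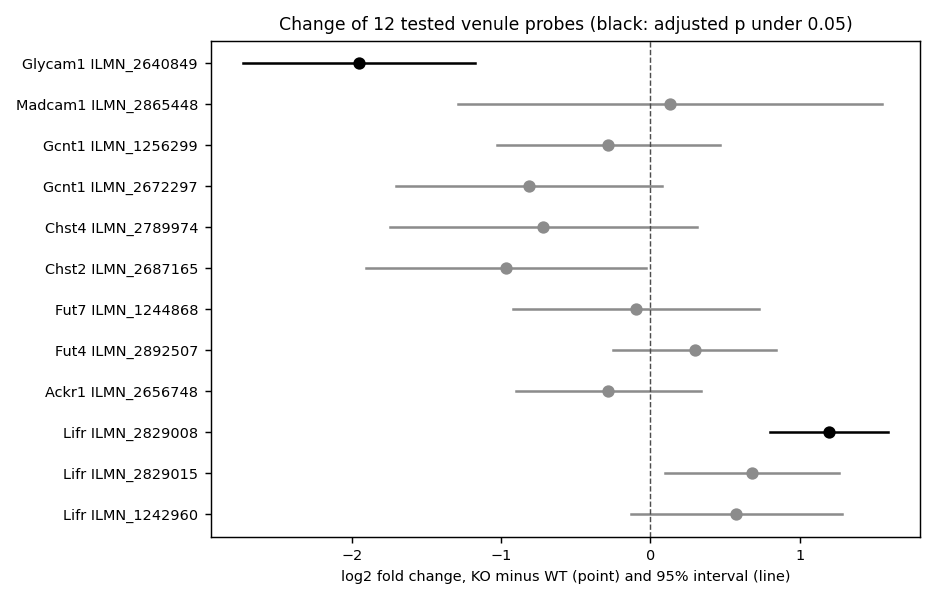
Log2 fold change, KO minus WT, of the 12 tested venule probes (points) with 95% intervals from limma (lines), in the order mucins, branching, sulfation, fucosylation and other venule genes. Black marks the probes called at an adjusted p under 0.05, Glycam1 at -1.95 and Lifr ILMN_2829008 at 1.20, and the grey intervals of the other probes reach or pass 0 except those of Chst2 (-1.90 to -0.03) and Lifr ILMN_2829015 (0.10 to 1.27), which did not pass adjustment.

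The changes of single genes were next set against each other within arrays, which cancels what both genes share on an array. For 8 pairs, picked with the values known, the log2 signal of one gene minus that of the other was compared between groups by a two-sided exact permutation test, whose smallest possible p with 3 arrays against 3 is 0.1 (0.16 adjusted over the 8 pairs), so no pair could pass. The difference of log2 changes was -2.08 for Glycam1 minus Madcam1, without overlap between groups (exact p = 0.1). It was -1.67 for Glycam1 minus Ackr1 and -0.99 for Glycam1 minus Chst2, again without overlap (exact p = 0.1 each). Chst2 minus Fut4 gave -1.26 (exact p = 0.1), also without overlap, while Chst4 minus Fut7 gave -0.62 (exact p = 0.3) with overlap. Within a class, Chst2 minus Chst4 gave -0.25 (exact p = 0.4) and Fut7 minus Fut4 gave -0.39 (exact p = 0.4). Lifr minus Ackr1 gave 1.48 without overlap (exact p = 0.1). The groups were already apart for Glycam1 and Lifr ILMN_2829008 alone, as for 48.2% of all tested probes. The lack of overlap was not compared with other gene pairs.

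**Figure D3:**
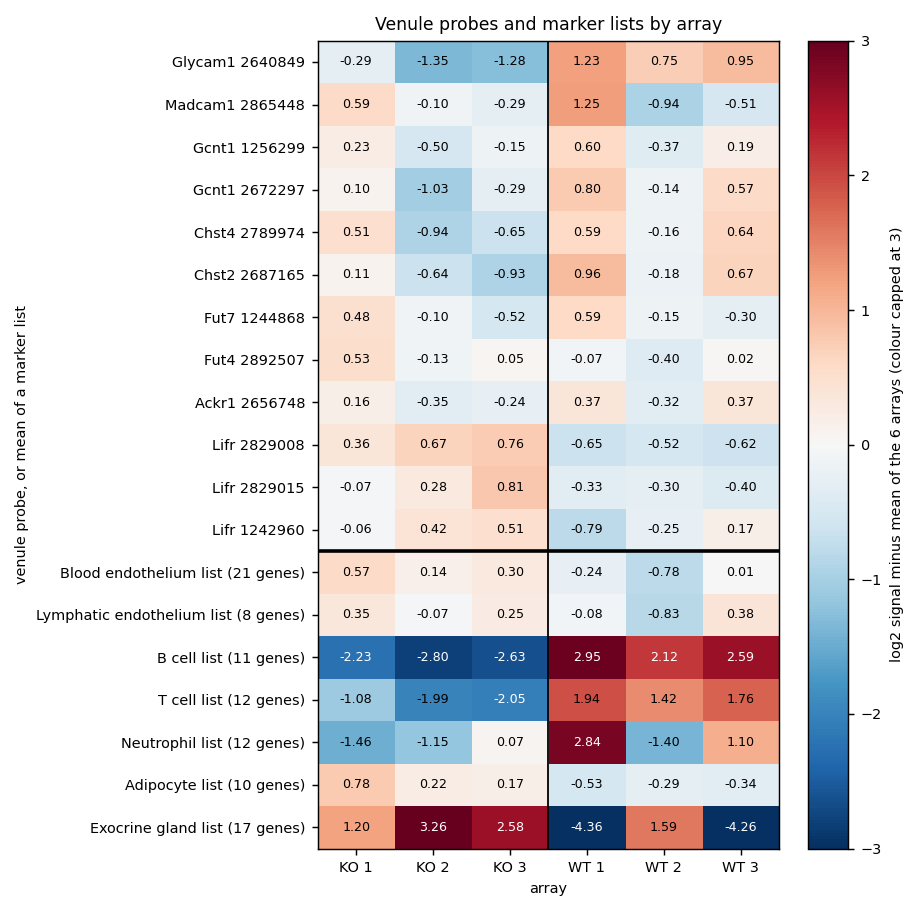
Log2 signal of the 12 tested venule probes and mean log2 signal of 7 marker lists on each array (KO arrays in the left columns, WT arrays in the right), each as the difference from its mean over the 6 arrays. Glycam1 reads -0.29, -1.35 and -1.28 on KO arrays and 1.23, 0.75 and 0.95 on WT arrays, and the gland list is high on all KO arrays and on WT replicate 2 (1.59) and low on WT replicates 1 and 3 (-4.36 and -4.26).

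Venule genes are expressed in endothelial cells, several of them also in the other cells named above. Their changes were therefore also read against general markers of blood endothelium. Of 21 tested blood endothelial genes, 5 rose and 0 fell, where 10.2% of all genes rose and 17.3% fell. Their median log2 fold change was 0.58. Vwf, the clotting factor stored in endothelial granules, had a log2 fold change of 1.86 (limma adjusted p = 0.044), and Gpihbp1, the capillary anchor of lipoprotein lipase, one of 1.42 (limma adjusted p = 0.033). Pecam1, the CD31 antigen of endothelial junctions, had a log2 fold change of 0.43 and was not called (limma adjusted p = 0.256). The number of endothelial genes called higher was 0 without any 1 KO array or without WT replicate 1. It was 7 without WT replicate 2 and 2 without WT replicate 3. The share of all tested probes called higher changed as well, from 10.1% with all arrays to 19.5% without WT replicate 2. Without any 1 of the other arrays that share was 3.35% to 4.8%. The number of endothelial genes called higher was 15 with the gland mean as a covariate and 1 with no filter on dim probes. Of all tested probes, 10.1% were called higher with the covariate and 5.86% with no filter. The list mean was 11.04, 10.62 and 10.77 on the KO arrays and 10.23, 9.70 and 10.48 on the WT arrays, higher on every KO array than on any WT array. Of 25 endothelial genes on the array, 21 to 22 were detected on each array of either group.

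With each array expressed relative to its endothelial mean and all probes refitted, the test asks whether a probe changed differently from these endothelial genes. This scaling lowers every log2 fold change by the same amount and moved the median of all tested probes to -0.67, so that 39.4% of all tested probes were called lower and 1.02% higher. On this scale 6 of the 12 venule probes were called lower and 0 higher. Glycam1 had a log2 fold change of -2.63 (SE 0.30, limma adjusted p = 0.0010), 6.18-fold lower in KO nodes. Chst2 was at -1.64 (limma adjusted p = 0.0048), Chst4 at -1.39 (limma adjusted p = 0.011) and the Gcnt1 probes at -1.49 (limma adjusted p = 0.0057) and -0.96 (limma adjusted p = 0.022). Ackr1 read -1.12, -1.21 and -1.25 relative to the endothelial mean on the KO arrays and -0.10, -0.26 and -0.35 on the WT arrays, with SDs of 0.064 and 0.127. Its log2 fold change on this scale was -0.96 (SE 0.21, limma adjusted p = 0.010). Fut7 (-0.77, limma adjusted p = 0.134), Fut4 (-0.38, 0.215) and Madcam1 (-0.54, 0.434) were not called lower than the endothelial genes. Lifr ILMN_2829008 was at 0.52 and lost its call (limma adjusted p = 0.246), and the other Lifr probes were at 0.01 and -0.10. Gcnt1, Fut7, Fut4, Madcam1, Ackr1 and Lifr are also expressed outside endothelium, as given above. A change on this scale is therefore not a change within endothelial cells, and the part of other cells was not tested.

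**Figure D4:**
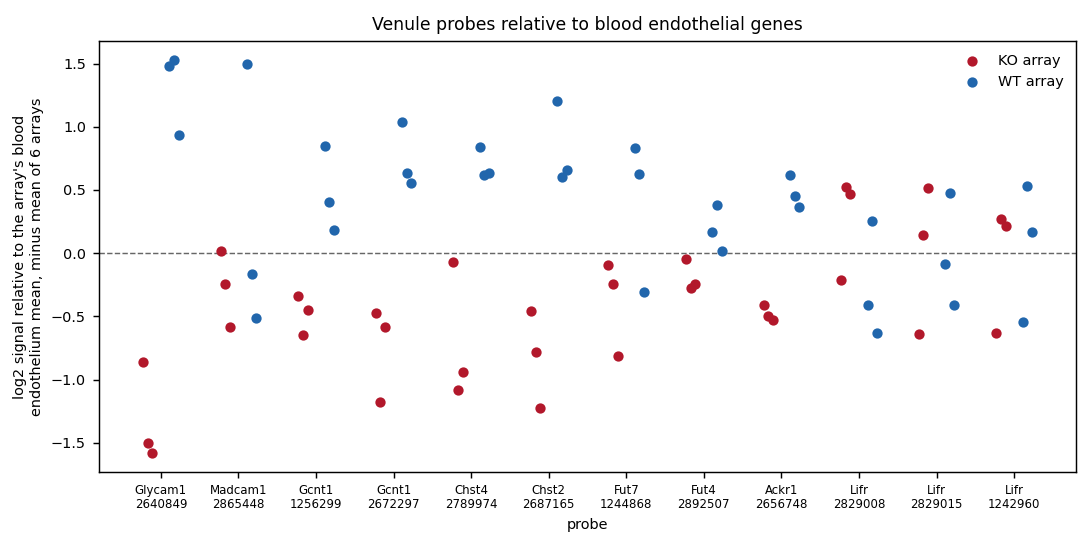
Log2 signal of the 12 tested venule probes relative to the mean of 21 blood endothelial genes on the same array, minus the mean over the 6 arrays, with KO arrays in red (left) and WT arrays in blue (right). KO and WT points are apart for Glycam1, both Gcnt1 probes, Chst4, Chst2, Fut4 and Ackr1, and they overlap for Madcam1, Fut7 and the Lifr probes. Of the probes apart here, only Glycam1 was apart before the scaling, which lowers every KO minus WT change by the same amount. The share of all tested probes apart on this scale was not counted.

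Among other carriers of L-selectin ligands, some rose. Of 8 tested scaffold genes, 3 rose and 0 fell, where 10.2% of all genes rose, and the median log2 fold change of the 8 was 0.54. Podxl, the podocalyxin of endothelium and kidney podocytes, was higher in KO nodes (log2 fold change 1.32, SE 0.21, limma adjusted p = 0.0077) and kept its call with any 1 array left out. Spn, the leukocyte mucin CD43, rose by 0.98 (limma adjusted p = 0.021) and Podxl2, endoglycan, by 0.91 (limma adjusted p = 0.025) on the log2 scale. Without KO replicate 1 or 2 or WT replicate 3 only Podxl remained called, and without WT replicate 1 it was 2 of the 3. The venule mucins Cd34 (0.32) and Cd300lg (0.37) and the endothelial sialomucin Emcn (0.25) were not called, with limma adjusted p of 0.393, 0.207 and 0.555. Relative to the endothelial mean 0 of the 8 were called higher, on a scale where 1.02% of all tested probes were. That count therefore does not set these genes apart from other genes.

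Of 14 other glycan enzymes tested, 1 rose and 1 fell, where 10.2% of all genes rose and 17.3% fell. The enzyme whose gene fell does not build O-glycans. Fut8, the core fucosyltransferase of N-glycans and no part of the L-selectin ligand, was lower in KO nodes (log2 fold change -2.20, SE 0.36, limma adjusted p = 0.0086). The sialyltransferase gene St3gal3 was at 0.89 with a limma adjusted p of 0.0498, and this call was lost without any 1 array except WT replicate 2. Without WT replicate 2, 6 of these genes were called higher, in a fit that called 19.5% of all tested probes higher. B3gnt3, which extends the core 1 branch that also carries ligand, was at 0.62 and not called (limma adjusted p = 0.160). St3gal4 and St3gal6, the sialyltransferases thought to act on selectin ligands, were at 1.63 and -0.64 and were not called. St3gal4 read 10.65, 10.83 and 11.38 on the KO arrays and 8.39, 11.40 and 8.18 on the WT arrays, which follows the gland list.

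Of the leukocyte molecules that meet the venule, 5 genes were tested, of which 2 fell and 1 rose. Of all genes 17.3% fell and 10.2% rose. The chemokine receptor gene Cxcr5, detected on 1 of 3 KO arrays, had a log2 fold change of -5.75 (limma adjusted p = 0.00076), and Cxcr4 was 3.56-fold lower (limma adjusted p = 0.0030). Ccr7, the receptor for the chemokines that the venules present, was 2.34-fold higher in KO nodes (log2 fold change 1.22, SE 0.20, limma adjusted p = 0.0086), and leaving out any 1 array ended none of these 3 calls. Itgb7, a chain of the MADCAM1-binding integrin, was at -0.19 (limma adjusted p = 0.679). Dendritic cells carry Ccr7 as T cells do, and the part of each was not tested.

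In the lymphotoxin pathway, 2 of 8 tested genes fell and 2 rose, where 17.3% of all genes fell and 10.2% rose. Lta, the lymphotoxin alpha gene, had a log2 fold change of -2.20 (SE 0.29, limma adjusted p = 0.0048), and Ltb, its partner in the membrane form, was at -0.86 (limma adjusted p = 0.107). The receptor gene Ltbr was 2.89-fold higher (limma adjusted p = 0.0035). The adaptor gene Traf2 was at -1.41 (limma adjusted p = 0.011) and the NF-kB subunit gene Relb at 1.28 (limma adjusted p = 0.041), and Relb lost its call without any 1 array except WT replicate 1, with a limma adjusted p of up to 0.118. With the gland mean as a covariate Traf2 lost its call (-1.28, limma adjusted p = 0.055), and against WT replicate 2 alone it was at -1.39. The number of lymphotoxin pathway genes called higher was 4 with the covariate, in a fit that called 10.1% of all tested probes higher. Of 18 other venule genes tested, 3 rose and 0 fell, beside the same shares of all genes, with a median log2 fold change of 0.41. These were the lipid carrier Apoe (1.19), the junction protein F11r (1.11) and the sphingosine kinase Sphk2 (0.62). The number was 0 without KO replicates 1 or 3 or WT replicate 1, and 1 without KO replicate 2 or WT replicate 3. It was 4 without WT replicate 2, in a fit that called 19.5% of all tested probes higher. With the gland mean as a covariate the number was 7, beside 10.1% of all tested probes. The chemokine Ccl21a, whose probe may not separate the near-identical Ccl21 copies, was at -0.19 and not called (limma adjusted p = 0.617).

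**Figure D5:**
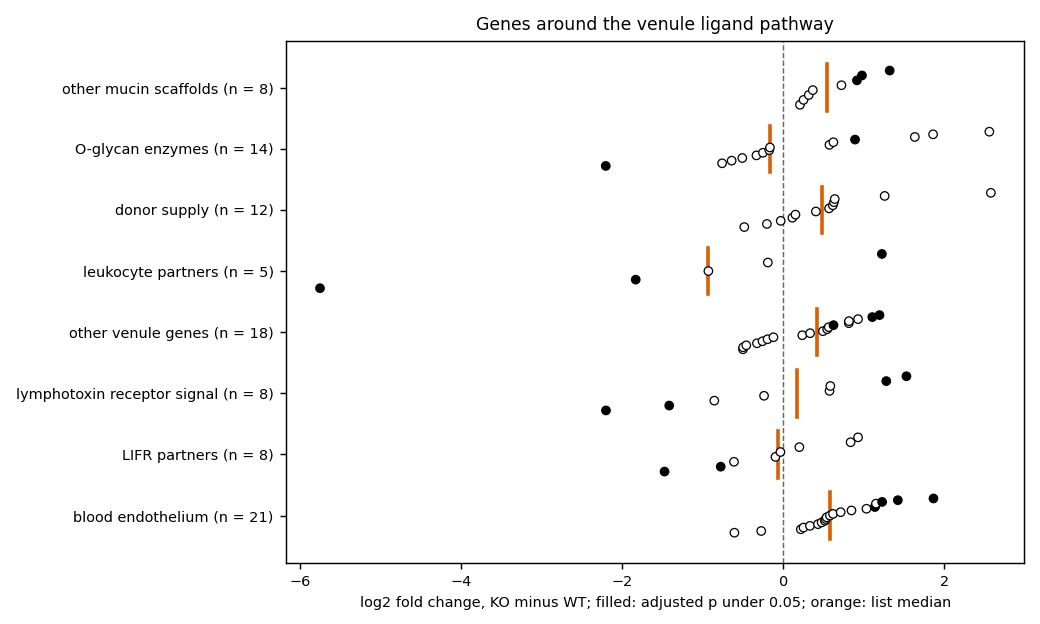
Log2 fold change, KO minus WT, of each tested gene in 7 lists around the venule ligands and in the blood endothelium list. Filled points passed an adjusted p under 0.05 and orange bars are list medians, which run from -0.93 for the leukocyte partners to 0.58 for blood endothelium.

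The genes whose signals ran most like Glycam1 over the 6 arrays, by Pearson correlation on the log2 scale, were Fam78a (r = 0.999), Ubash3a (0.999), H2-DMb2 (0.998), 3110009E18Rik (0.998) and Prkacb (0.998). Their log2 fold changes were -1.44, -2.37, -2.57, -0.99 and -0.72. For Lifr ILMN_2829008 the closest were Mrgpra2b (r = 0.999), Vdr (0.996), Tef (0.995), Aldoa (0.994) and Gprc5a (0.994). Over 6 arrays in 2 groups many genes correlate highly, and 591 of 9972 genes had r over 0.95 with Glycam1 and 247 with Lifr. These correlations describe the arrays and carry no test.

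The other cell types of the node are given by their counts, where 17.3% of all genes fell and 10.2% rose. Of 11 tested B cell genes 11 fell and of 12 T cell genes 11 fell, with 0 higher in both lists. With any 1 array left out, 10 or 11 B cell genes and 9 to 11 T cell genes were called lower. Fcmr, a receptor for IgM, was not detected on any KO array and was at least 349-fold lower in KO nodes by the same bound, and Pou2af1, a coactivator of B cells, was detected on 1 of 3 KO arrays. The T cell receptor chains Cd3d (-5.47) and Cd3e (-5.13) were detected on all arrays.

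The counts of the remaining lists changed when single arrays were left out, and so did the share of all tested probes. Called higher were 10.1% of these probes with all arrays and 19.5% without WT replicate 2. Without any 1 of the other arrays the share was 3.35% to 4.8%. Of 10 macrophage genes 3 were called higher, among them C1qa (1.91) and Cd163 (1.67), and 1 lower, but 0 were called higher without any 1 KO array or without WT replicate 1, and 5 without WT replicate 3. Of 10 smooth muscle genes 3 were called higher, among them Tagln (1.85) and Lmod1 (1.56), with 0 without KO replicate 2 or 3 or WT replicate 3 and 5 without WT replicate 2. Of 17 gland genes 3 were called higher, Klk1b26 and Klk1b22 among them, each detected on 3 KO arrays and 1 WT array. That number was 13 without WT replicate 2, 1 without KO replicate 2, and 0 without KO replicate 3, WT replicate 1 or WT replicate 3. Of 8 lymphatic endothelial genes 1 was called higher, Stab2 (1.39), and Stab2 lost its call without any 1 KO array or WT replicate 1. Of 5 erythroid genes 1 was called higher, Alas2 (0.97), a call lost without KO replicate 2 or 3 or WT replicate 1 or 3. Of 3 skeletal muscle genes Tnni2 (1.11) was called higher and Mylpf (-0.92) lower. Tnni2 lost its call without any 1 KO array or WT replicate 3, and Mylpf without any 1 array except WT replicate 2.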

How the data were processed

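Signals came from 6 Illumina Mouse Ref-8 v2 arrays of lymph node RNA. The deposited non-normalized table holds 1 signal intensity per probe and array and a detection p-value; the submitters' processing notes name GenomeStudio 2011.1. A second deposited table holds the authors' log2 values, which equal a quantile normalization of the log2 intensities to within 5e-07 and served only as an alternative. Intensities of all 25697 probes were background-corrected, offset by 16, quantile-normalized and put on the log2 scale (neqc in limma 3.58.1 under R 4.3.3). The fit took the probes detected (p under 0.05) on at least 3 arrays and used lmFit and eBayes (14378 probes), KO minus WT, two-sided, with Benjamini-Hochberg adjustment over all of them. The fit was also run on simulated data with independent noise for each probe and array. Such data lack the shared departure of WT replicate 2, so that run does not test its effect on the calls. Fold changes are on this scale, where the offset shrinks dim probes, and the number of arrays limits the precision.

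Probes were named from the platform annotation (23978 with 1 symbol, 1719 with none), and all 14 venule probes matched RefSeq by Entrez identifier. A gene in a list is its brightest tested probe. Of 274 list entries in 20 lists, 246 were on the array and 209 were tested. Genes named are all venule probes, up to 3 called genes per direction from each pathway list, up to 2 from cell lists, and the 5 most correlated genes. Genes given as not called, and the milk genes, were chosen after their values were seen. The venule genes and lists were chosen with earlier results of these data known. Sequences and motifs come from RefSeq windows of GRCm38.p6, and the files name no build. The labels do not say whether replicate numbers pair the samples. They were not taken as pairs, since replicates 3 of KO and WT deviated in opposite directions (r = -0.31). Deviations correlated positively for replicates 1 (0.49) and 2 (0.32), so pairing remains unknown. Alternatives covered background, normalization, filter, array weights, covariates and left-out arrays.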

Additional observations from a re-analysis of the deposited data

How the results depend on the processing

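Of the settings tried, those that changed background correction, offset, between-array scaling, the authors' values or the detection filter left both venule calls and both counts as reported, with Lifr ILMN_2829008 at 0.76 to 1.20. The number of venule probes called lower was 1 to 3 with 1 array left out, 3 without WT replicate 2, 5 with array weights, 6 relative to the endothelial mean, and 0 with the gland covariate or against WT replicate 2 alone. The number called higher was 1 with any 1 array left out, 2 with array weights, and 0 relative to the endothelial mean or against WT replicate 2 alone. Over all probes array weights called 55.4%, the gland covariate 20.9%, the fit without WT replicate 2 43.8% (24.3% lower) and WT replicate 2 alone 6.61%, against 28.6% in the reported fit, and the cause was not tested.

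Directions turned for probes that were not called. With the gland covariate the log2 fold changes were 0.42 for Gcnt1 ILMN_1256299, 0.14 for Chst4, 0.27 for Fut7 and 0.33 for Ackr1. Against WT replicate 2 alone they were 0.23 for Gcnt1 ILMN_1256299, 0.10 for Fut7 and 0.18 for Ackr1. The endothelial scaling lowers every change by the same amount, so small positive changes turn by construction. On it they were -0.54 for Madcam1, -0.38 for Fut4 and -0.10 for Lifr ILMN_1242960, and -0.050 for Sphk2, which had been called higher. With 1 array left out Madcam1 ran from -0.31 to 0.79 and Fut7 from -0.36 to 0.18.

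With the replicate number as a block, 2 venule probes were called lower, Glycam1 and Gcnt1 ILMN_2672297 (-0.82, limma adjusted p = 0.021), and Lifr kept its call. Over all probes 19.7% were called lower in that fit. Deviations of same-numbered arrays correlated at 0.49, 0.32 and -0.31, and KO replicate 3 correlated best with WT replicate 2, so the numbers were not taken as pairs. With 3 arrays a group and WT replicate 2 apart from the others, the intervals of Madcam1 and Chst4 were wide (-1.29 to 1.55 and -1.75 to 0.31).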

Other observations

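The supply of sugar and sulfate donors for the venule ligands was not called in either direction. Of 12 tested genes, 0 rose and 0 fell by limma, where 10.2% of all genes rose and 17.3% fell. The median log2 fold change of the 12 was 0.49. Gne, which starts the synthesis of sialic acid, read 12.11, 12.70 and 13.49 on the KO arrays and 8.89, 12.77 and 8.92 on the WT arrays (log2 fold change 2.58, SE 1.08, limma adjusted p = 0.116), high wherever the gland list was high. Slc35b3, which carries the sulfate donor into the Golgi, was the most negative of the 12 at -0.48 (limma adjusted p = 0.067), and the 1 gene of the list with an unadjusted p under 0.05. Without WT replicate 2, 6 of the 12 were called higher, beside 19.5% of all tested probes. With the gland mean as a covariate 1 was called higher and 2 lower, beside 10.1% and 10.8% of all tested probes.

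Around LIFR, 2 of 8 tested partners fell and 0 rose, where 17.3% of all genes fell and 10.2% rose. The kinase gene Jak1 was at -1.47 (SE 0.21, limma adjusted p = 0.0061), a call kept with any 1 array left out. Stat3 was at -0.78 (limma adjusted p = 0.046). Only leaving out WT replicate 2 kept that call, and 1 of its 3 probes was called. With the gland mean as a covariate 1 partner was called lower and 2 higher, beside 10.8% and 10.1% of all tested probes. Il6st, the shared signalling chain of LIFR, was at 0.93 and not called (limma adjusted p = 0.071). Lymphocytes also express Jak1 and Stat3, and their part was not tested.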
